A study of Mus musculus with 5 samples.

Results

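The neighbouring long noncoding RNA genes Malat1 and Neat1 were examined for β-catenin occupancy in mouse embryonic stem cells. The locus was taken as chromosome 19 from 5.74 to 5.90 Mb in the mm9 build. It was selected on measured values, because the longest merged region of the whole dataset lies in it, so the lengths and tag counts below describe the locus and test nothing. Members were the deposited peaks whose summit, the position of highest signal, lay in that window. They numbered 20 of 44750 peaks, with 10 of 16069 by CHIR99021 anti-FLAG, 5 of 15947 by CHIR99021 streptavidin and 5 of 12734 by DMSO streptavidin.

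All libraries came from the V6.5 line Ctnnb1-Biotin-3xFLAG, in which a knock-in at the β-catenin gene adds a FLAG epitope and a site biotinylated by the BirA ligase. Cultures contained serum, LIF and feeder cells of DR4 mice. CHIR99021 was used at 3 µM, for 16 hours per the treatment protocol and 24 hours per the series text, and DMSO was its vehicle. The 3 ChIP libraries were CHIR99021 with anti-FLAG, CHIR99021 with streptavidin, and DMSO with streptavidin. For DMSO the label and the header's ChIP file name give that capture, while the name of the peak call says FLAG. Each library was alone in its group and peaks were called against an input, the same one for both CHIR99021 libraries, so no value has a replicate error and no test across samples was possible. Feeder cells were depleted by plating before ChIP, and a ChIP of untagged cells was not analysed here.

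β-Catenin does not bind DNA by itself. Once Wnt signalling or inhibition of the kinase GSK3 by CHIR99021 stops its degradation, it enters the nucleus and is held on chromatin mainly by TCF/LEF factors. Malat1 encodes an abundant nuclear RNA that gathers in nuclear speckles, and its 3′ end is cleaved to release the small tRNA-like mascRNA. Neat1 encodes the RNA that scaffolds paraspeckles. A short and a long Neat1 isoform share their start, and the long one is the scaffold. Both genes are transcribed from the minus strand, so their start is at the high-coordinate end. In mm9 Malat1 lies near 5.796 to 5.803 Mb and the short form of Neat1 near 5.842 to 5.845 Mb. These positions are rounded, and no mm9 annotation was used beyond them. By order in the RefSeq gene table of GRCm38.p6, Malat1 with Mascrna is followed toward higher coordinates by Neat1, Frmd8, Slc25a45 and Tigd3.

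Of both genes, Malat1 had an entry in the RefSeq promoter table. Its promoter is shown because intervals of both CHIR99021 lists covered the Malat1 start. The sequence runs from 250 bases before to 50 after the start (GRCm38.p6, chr19:5802623-5802922, minus strand). That build is not the one of the peaks, so no peak was placed on these bases. Capitals mark CTTTG, the core shared by the TCF/LEF motifs CTTTGAA and CTTTGAT.
Malat1 promoter: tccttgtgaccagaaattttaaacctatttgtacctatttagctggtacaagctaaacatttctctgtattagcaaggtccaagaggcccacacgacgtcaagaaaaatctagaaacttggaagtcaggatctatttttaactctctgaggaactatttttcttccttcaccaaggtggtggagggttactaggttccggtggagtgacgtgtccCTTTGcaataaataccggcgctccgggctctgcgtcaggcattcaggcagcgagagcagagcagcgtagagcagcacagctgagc
On either strand the window held CTTTG 1 time, and 53.9% of 32851 promoters of the same length hold it at least that often. CTTTGAA and CTTTGAT, which are in 5.14% and 3.73% of promoters, were not among these letters.

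The largest interval of the locus covered the start of Neat1. The anti-FLAG list held an interval of 7921 bp (5838231 to 5846151) with 450 tags, which are the reads counted in a peak. CHIR99021 streptavidin gave an interval of 7961 bp (5840136 to 5848096) with 356 tags. Each was the longest interval of its list. The DMSO list had a peak of 100 bp there (5845351 to 5845450) with 10 tags. Exact Poisson intervals at 95%, which cover counting error only, ran from 409.4 to 493.6 tags for anti-FLAG, from 320.0 to 395.0 for CHIR99021 streptavidin and from 4.80 to 18.4 for DMSO. The CHIR99021 intervals thus spanned all of the short Neat1 form and extended past it on both sides, while the DMSO peak was a short call beside the start. Anti-FLAG also had a second peak at 5846244 to 5847420 with 75 tags, 92 bp further on, which lay inside the streptavidin interval. Merged, the 3 lists made a region of 9866 bp, from 5838231 to 5848096.

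**Figure D1:**
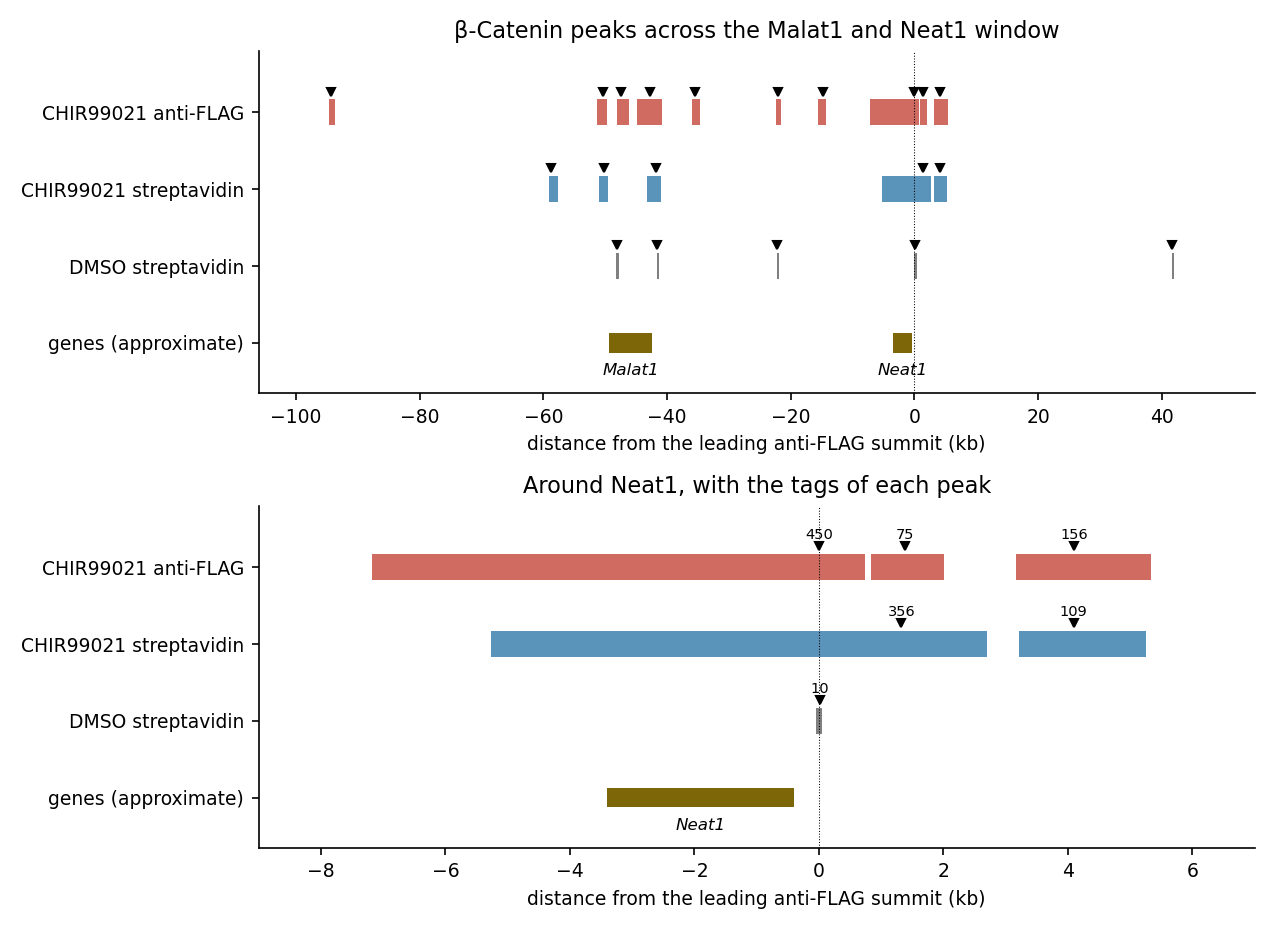
Peak intervals (bars) and summits (triangles) by list, against the distance in kb from the leading anti-FLAG summit, with rounded gene positions at the bottom. In the upper panel bars have a minimum width, so that DMSO peaks are visible, and in the lower panel all bars are to scale with tags above them. At Neat1 the anti-FLAG summit of 450 tags and the DMSO summit of 10 tags lie at the same place and the streptavidin summit of 356 tags lies to the right.

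Within this region the summits of the lists did not all fall together. The anti-FLAG summit was at 5845405 and the DMSO summit at 5845422, 17 bp apart. The CHIR99021 streptavidin summit was at 5846730, 1325 bp from the anti-FLAG one and 1308 bp from the DMSO one. Among 9358 overlapping pairs of anti-FLAG and CHIR99021 streptavidin peaks in the genome the median distance was 43 bp, a value for pairs that are mostly much shorter than the Neat1 intervals, where summits have less room to lie apart. The second anti-FLAG peak had its summit at 5846784, 54 bp from the streptavidin summit. Both positions were therefore marked by anti-FLAG, each as a peak of its own, and CHIR99021 streptavidin gave 1 interval over both with its summit at the outer one.

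Past the Neat1 region, 476 bp away and on the side of Frmd8, a further region was held by both CHIR99021 lists. It spanned 5848573 to 5850744, with 156 anti-FLAG tags and 109 CHIR99021 streptavidin tags. The summits, at 5849508 and 5849497, were 11 bp apart. No DMSO peak was called in it. This was the closest agreement in position between the CHIR99021 captures at the locus.

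At Malat1 peaks lay over the start, in the gene body and close to the low-coordinate end. The interval over the start was 3989 bp long by anti-FLAG (5800560 to 5804548) with 192 tags, and 2174 bp by CHIR99021 streptavidin (5802198 to 5804371) with 96 tags. DMSO had a peak of 73 bp with 8 tags (5803746 to 5803818) inside both. The summits were at 5802689 by anti-FLAG, 5803604 by CHIR99021 streptavidin and 5803794 by DMSO. Here the streptavidin summit was closer to the DMSO summit, at 190 bp, than to the anti-FLAG summit, at 915 bp. At Neat1 the DMSO summit lay by the anti-FLAG summit. These DMSO summits rest on 8 tags at Malat1 and 10 at Neat1. Over all overlapping pairs, the median distance to a DMSO summit was 101 bp by anti-FLAG and 103 bp by CHIR99021 streptavidin.

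The low-coordinate end of Malat1, where mascRNA is released, had a region of both CHIR99021 lists and no DMSO peak. By anti-FLAG it held 106 tags (5794006 to 5795680) and by CHIR99021 streptavidin 93 tags (5794406 to 5795940), with summits 150 bp apart. Both intervals ended just short of the rounded gene end at 5.796 Mb, so the data do not say whether they reach it. In the gene body anti-FLAG had a peak of 72 tags (5797261 to 5799224), and DMSO had a peak of 6 tags (5797231 to 5797304) that shared 44 bp with it. CHIR99021 streptavidin had no peak there.

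Of the remaining 7 peaks, 5 were found by 1 list alone. Between both genes, anti-FLAG alone held peaks of 85 tags (5809448 to 5810746) and 50 tags (5829798 to 5831126). Another anti-FLAG peak between them had 33 tags (5822989 to 5823856) and contained a DMSO peak of 6 tags (5823122 to 5823163). Whether any of these lies in the long form of Neat1 was not assigned. On the low-coordinate side of Malat1, anti-FLAG had 41 tags at 5750796 to 5751688 and CHIR99021 streptavidin had 38 tags at 5786268 to 5787711. On the other side, a DMSO peak of 6 tags (5886960 to 5887043) stood alone.

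In all, the 20 peaks made 11 merged regions. All 3 lists held 2 of them, at the starts of Malat1 and Neat1. Both CHIR99021 lists without DMSO held 2, anti-FLAG and DMSO held 2, anti-FLAG alone 3, CHIR99021 streptavidin alone 1 and DMSO alone 1. Among all 33485 regions, these classes held 1180, 7933, 162, 6652, 6568 and 10827 in the same order, starting with all 3 lists. CHIR99021 streptavidin and DMSO without anti-FLAG held 163 of all regions and 0 here. Of the anti-FLAG peaks of the locus, 5 of 10 shared at least 1 bp with a CHIR99021 streptavidin peak, against 57.6% of all anti-FLAG peaks. In the other direction it was 4 of 5, against 57.8% of all CHIR99021 streptavidin peaks. The overlap between captures was thus near that of the whole lists for anti-FLAG, and 5 streptavidin peaks are too few to set apart.

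Peaks with DMSO partners made up a larger share here than in the whole lists. A DMSO peak overlapped 4 of 10 anti-FLAG peaks, against 8.24% of the whole list, and 2 of 5 CHIR99021 streptavidin peaks, against 8.38%. Of the 5 DMSO peaks, 4 overlapped an anti-FLAG peak and 2 a CHIR99021 streptavidin peak, against 13.4% and 13.5% of the whole DMSO list. These shares are a description, since the locus was chosen with such values known. The window's CHIR99021 intervals were also long, with medians of 1502 bp by anti-FLAG and 2037 bp by CHIR99021 streptavidin against 859 and 926 bp for the whole lists, and the part of that length in the shares was not tested. DMSO peaks were called with a modelled fragment length (d) of 30 bp, against 185 bp for anti-FLAG and 214 bp for CHIR99021 streptavidin. The DMSO header gives no library depth. A change in occupancy between CHIR99021 and DMSO could therefore not be measured at Malat1 or Neat1.

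Both CHIR99021 captures could be compared at known depth, 16100920 unique tags for anti-FLAG and 11934863 for streptavidin. The Neat1 region held 32.6 tags per 1000000 unique tags (RPM below) by anti-FLAG (525 tags over 9098 bp of intervals) and 29.8 by streptavidin (356 tags over 7961 bp). Their ratio was 1.09, with an exact 95% interval from 0.954 to 1.25 for counting error only. At the start of Malat1 anti-FLAG had 11.9 and streptavidin 8.04 RPM, a ratio of 1.48 (1.15 to 1.91). Ratios were 0.845 (0.633 to 1.13) at the low end of Malat1 and 1.06 (0.825 to 1.37) beyond Neat1. Over the 9113 regions shared by both captures the median ratio was 0.879, with quartiles of 0.741 and 1.05. These sums depend on the length called in each list, which at the Malat1 start was 3989 bp by anti-FLAG and 2174 bp by streptavidin. Per kb of interval the order turned there, with 2.99 RPM by anti-FLAG and 3.70 by streptavidin. At Neat1 it turned as well, with 3.58 RPM per kb by anti-FLAG and 3.75 by streptavidin, a ratio of 0.957. The ratio per kb was 0.774 at the low end of Malat1 and 0.995 beyond Neat1, and its median over all shared regions was 0.925. Against a ratio of 1, only the low end of Malat1 leaned to the same capture on both scales. Streptavidin was higher there on both, but the interval of the ratio included 1. Against the medians of all shared regions, Neat1 and the region beyond it were higher on both scales and the low end of Malat1 lower on both. The start of Malat1 was higher by tags and, with a ratio per kb of 0.808, lower by density. Of all shared regions, 95.1% had a lower tag ratio than the Malat1 start, 78.8% than Neat1, 75.7% than the region beyond it and 44.3% than the low end of Malat1. With 1 library for each capture, the spread between repeats of a capture is unknown.

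**Figure D2:**
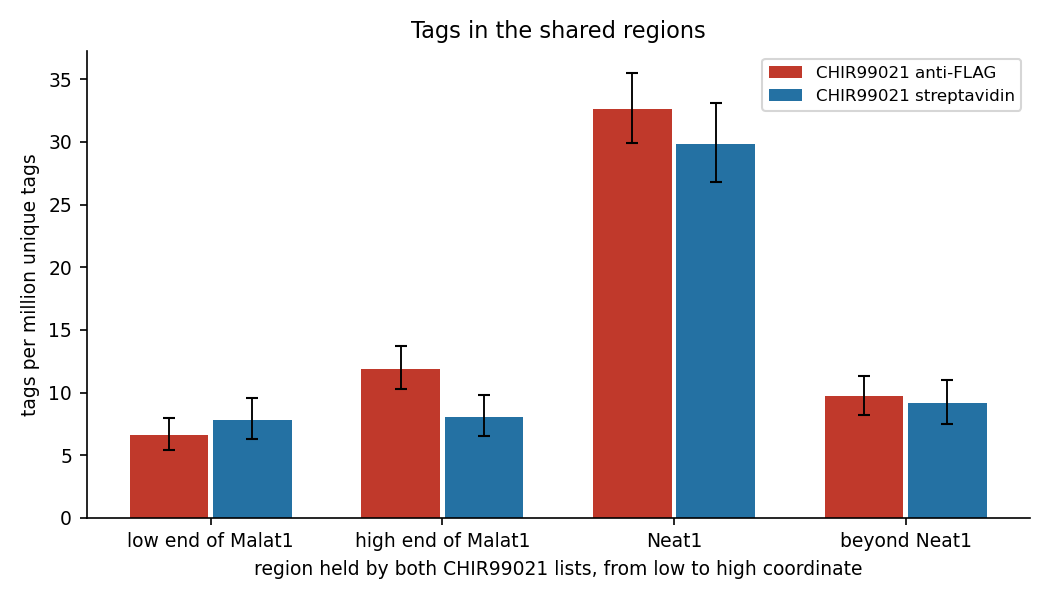
RPM, the tags per 1000000 unique tags of a library (vertical axis), in the 4 regions of the locus held by both CHIR99021 lists, with 95% Poisson intervals as error bars. The Neat1 region stands highest in both captures, at 32.6 by anti-FLAG and 29.8 by streptavidin, and the error bars of the captures are apart only at the high end of Malat1, where the anti-FLAG interval is also longer (3989 bp, against 2174 bp).

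The locus combined many tags with low fold enrichment, the authors' ratio of tags over the local background. The leading anti-FLAG peak at Neat1 ranked 38 of 16069 by tags but 10973 by fold, with 6.87-fold. The leading CHIR99021 streptavidin peak ranked 66 of 15947 by tags and 4256 by fold, with 11.63-fold. Among 78 other anti-FLAG peaks with 0.8 to 1.25 times as many tags, the median fold was 31.1 and 4 were lower than the Neat1 peak. Among 103 such peaks by streptavidin, the median fold was 38.2 and 8 were lower. The Neat1 peaks are the longest of their lists, on which the locus was selected, and the matched peaks had median lengths of 2273 bp by anti-FLAG and 2325 bp by streptavidin. Per kb of interval the Neat1 peaks held 56.8 tags by anti-FLAG and 44.7 by streptavidin, against medians of 179.4 and 140.8 for the tag-matched peaks and 43.9 and 35.1 for all peaks of these lists. Of the tag-matched peaks, 1 of 78 by anti-FLAG and 1 of 103 by streptavidin had a lower density than the Neat1 peak. Length was selected and tags were matched, so a low density against these peaks was fixed in advance. It restates the length and is no separate result. The fold against these peaks is not independent of that choice either, and the part of length in it was not tested.

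Low fold was shared by most peaks of the window. Of the 10 anti-FLAG peaks, 9 were below their list's median fold of 8.13, and 9 were above its median of 39 tags. Their folds ran from 3.97 in the body of Malat1 to 8.26 at the second Neat1 peak. Of the 5 CHIR99021 streptavidin peaks, 4 were below the list's median fold of 8.56 and 5 above its median of 34 tags, with 3.74-fold at the start of Malat1. DMSO folds ran from 14.34 to 29.27, and 4 of 5 were below that list's median of 25.8. Folds of different lists were not compared, because depth and modelled fragment length differ between them.

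**Figure D3:**
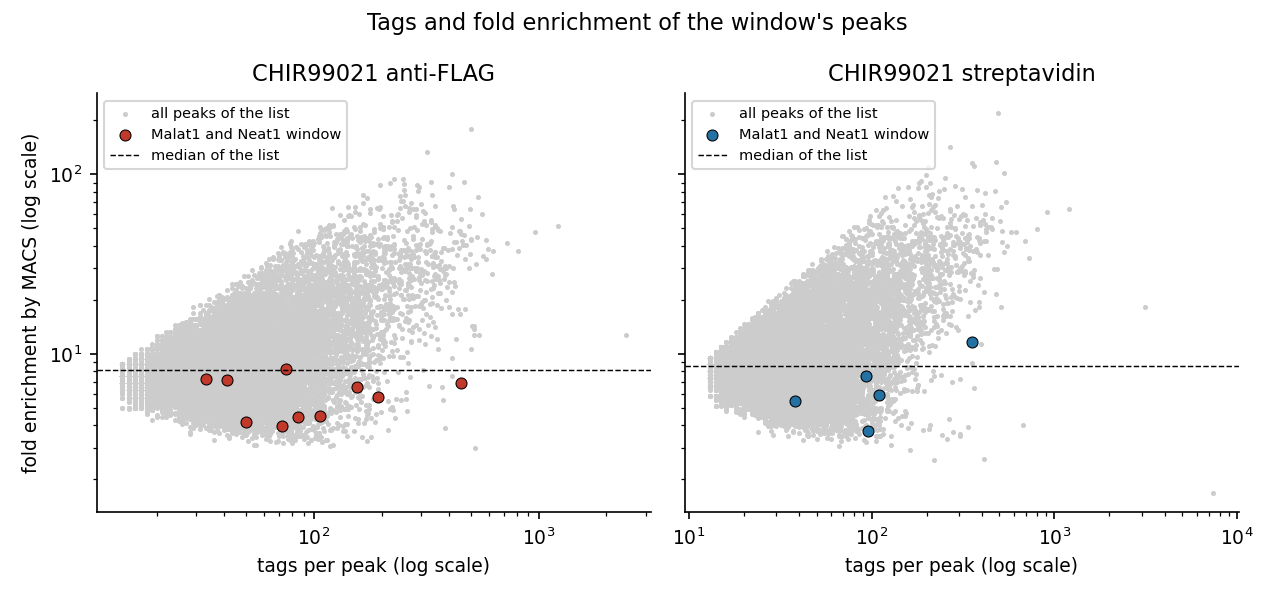
Fold enrichment against tags per peak, both on log scales, for all peaks of the CHIR99021 lists (grey) and those of the locus (coloured), with each list's median fold as a dashed line. Most of the 10 anti-FLAG and the 5 streptavidin peaks of the locus lie toward the lower side of their clouds. The anti-FLAG peaks of 33, 41 and 75 tags lie less low, and 1 peak of each list is above the dashed line.

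The score of the authors' peak caller, 10 times −log10 of the p-value, placed the leading CHIR99021 peaks between their ranks by tags and by fold. This did not hold for every peak of the locus. The leading peaks scored 330.96 by anti-FLAG, in the top 11.2% of its list, and 365.87 by CHIR99021 streptavidin, in the top 8.63%. At the start of Malat1 the scores were 196.41 by anti-FLAG and 58.16 by streptavidin, near the cutoff of 50. DMSO scores at the locus ran from 50.99 to 68.9. All DMSO peaks of the window had a false discovery rate of 3.06 to 3.74%. Of the others, 7 of 10 anti-FLAG and 3 of 5 CHIR99021 streptavidin peaks were at 1% or less. The shares of the whole lists at 1% are not given here, so these counts do not set the locus apart from its lists.

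Peaks were dense at the locus, which was chosen with that known. The window held 62.5 peaks per Mb by anti-FLAG, 31.2 by CHIR99021 streptavidin and 31.2 by DMSO. Over chromosome 19 the values were 8.03, 7.08 and 4.93 per Mb in the same order of lists. Of 16098 tiles of 160 kb, 10 had at least as many anti-FLAG peaks, while 395 had at least as many CHIR99021 streptavidin peaks and 238 as many DMSO peaks, the locus itself counted. The nearest peaks outside the window were 311.8 kb below and 184.9 kb above it for anti-FLAG, with 33 and 82 tags. For CHIR99021 streptavidin they were 129.7 and 158.0 kb away, with 55 tags each. For DMSO a peak of 6 tags lay 4.41 kb below the window and a peak of 10 tags 147.0 kb above it. Just inside the edges, the outermost peaks were those of 41 and 156 tags by anti-FLAG, 38 and 109 by CHIR99021 streptavidin, and 6 and 6 by DMSO. Around the window both CHIR99021 lists were thus empty over longer stretches than inside it.

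The Neat1 region was set beside the other long regions of the dataset. The next in length, on chromosome 9 (61213655 to 61221202), had a length of 7548 bp and held 374 anti-FLAG and 363 CHIR99021 streptavidin tags. One on chromosome 4 (3006434 to 3013648), of 7215 bp, held 521 anti-FLAG tags and no streptavidin peak. In the 10 longest regions the highest fold ran from 2.98 to 10.59 by anti-FLAG and, in the 8 that both CHIR99021 lists held, from 3.6 to 14.2 by streptavidin. Those values were below the medians of 31.1 and 38.2 of the peaks matched to Neat1 by tags. The 10 regions were not matched by tags, and some held fewer, such as 119 by anti-FLAG and 192 by streptavidin on chromosome 11. A DMSO peak was in 5 of the 10. Of all 33485 regions, both CHIR99021 lists shared 9113, and all 3 lists held 1180. Anti-FLAG and DMSO held 162, CHIR99021 streptavidin and DMSO 163, and DMSO alone 10827. Longer regions have more room for overlap, and the part of length in these counts was not tested. The start of Malat1, at 3989 bp, ranked 56 of 33485 regions by length.

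**Figure D4:**
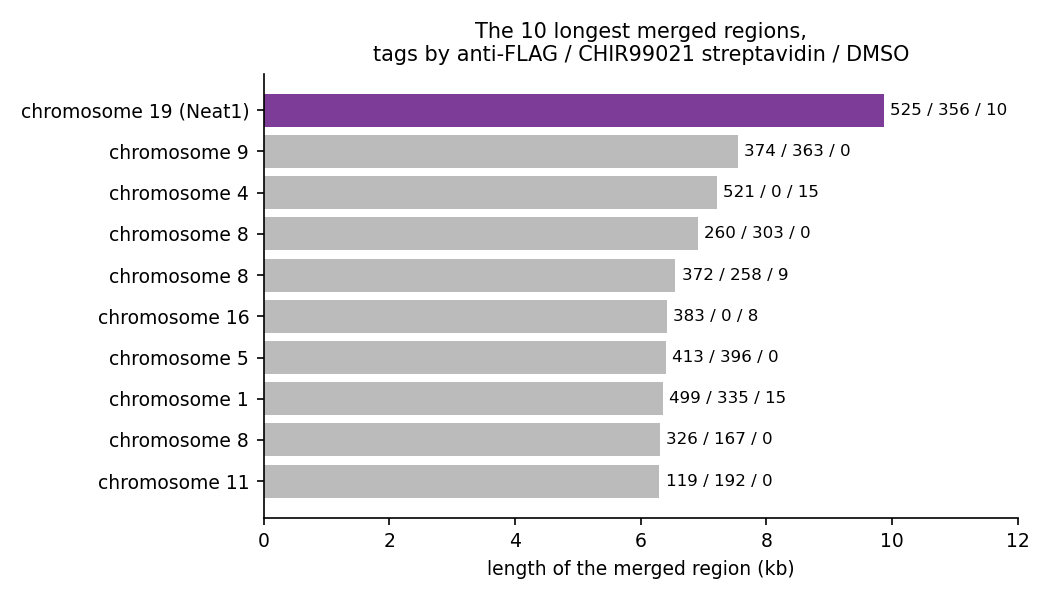
Length in kb of the 10 longest merged regions of the dataset, with the tags of anti-FLAG, CHIR99021 streptavidin and DMSO peaks beside each bar, where 0 means that no peak was called. The Neat1 region, of 9866 bp, exceeds the next by over 2 kb. Its 525 anti-FLAG tags, from peaks of 450 and 75, are the most of the 10, close to the 521 of 1 peak on chromosome 4.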

How the data were processed

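Tables were deposited for 3 ChIP libraries, and each of 5 samples is alone in its group. Per the file headers, peaks were called with MACS (version not given in the sources used here) on ELAND alignments, 1 ChIP library against 1 input, at a p-value cutoff of 1.00e-05. Per the submitters' processing notes, positions are in mm9. The deposited columns used were the count of tags per peak, the score (10 times −log10 p), the fold ratio over local background and the false discovery rate in percent. The deposited interval files repeated the MACS intervals for CHIR99021, and held windows of 400 bp around the summits for DMSO.

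Peaks were taken by summit. Peaks shared at least 1 bp to overlap, and overlapping or touching intervals were merged. Ranks run from the highest value, ties sharing the best rank. Intervals on tags are exact Poisson, on ratios Clopper-Pearson, at 95%. All peaks of the window are named. Tiles of 160 kb were set from the window's start. Overlap code was tested on simulated data, where 700 of 700 planted pairs were recovered. The members and comparisons were chosen with earlier results of these data known. Software was matplotlib 3.10.9, scipy 1.17.1, pandas 2.3.3, numpy 2.4.6 and Python 3.11.15.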

Additional observations from a re-analysis of the deposited data

How the results depend on the processing

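Window edges, interval membership, an FDR of 5% and the deposited interval files moved no count of peaks by over 1.5 times. At a p score of at least 100 there were 5 anti-FLAG peaks, 3 by CHIR99021 streptavidin and 0 by DMSO, an FDR of 1% left 3 CHIR99021 streptavidin and 0 DMSO peaks, and a fold of at least 10 left 0 anti-FLAG and 1 CHIR99021 streptavidin peak. The Neat1 region, selected for its length, was the longest under all 7 alternatives. It measured 12514 bp with gaps up to 1000 bp closed, 7961 bp at a fold of 10 and 9866 bp otherwise. The next region was 11419 bp with gaps up to 1000 bp closed and 9131 bp with gaps up to 200 bp closed. It was 6357 bp at a fold of 10 and 7548 bp otherwise. Closing gaps thus narrowed the lead. The anti-FLAG to streptavidin ratio at Neat1 was 1.28 scaled to tags in all peaks, 1.47 unscaled and 0.937 for the leading peaks alone. Per kb of interval, an alternative added after seeing the data, it was 0.957. Which capture is higher thus turns on the second anti-FLAG peak and on the length called. The median summit distance between CHIR99021 captures, 150 bp over 5 pairs, was 102 bp for summits within 1000 bp and 532.5 bp with 50% reciprocal overlap. In place of rank 38 by tags, the leading anti-FLAG peak ranked 1803 by score, 10973 by fold, 1 by length and 4422 by tags per kb. The CHIR99021 streptavidin one, 66 by tags, ranked 1376, 4256, 1 and 4474 in that order, and the DMSO one, 604 by tags, ranked 5293, 9867, 706 and 3937. No paired analysis was possible because no library was repeated. Since the DMSO depth is unknown, a place without a DMSO peak sets no limit on binding there.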
